A study of Rattus norvegicus with 17 samples.

Results

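The neurotrophins are secreted growth factors that keep neurons alive during development and adjust synapses later, and 6 genes of this system were followed here in hippocampi of adolescent rats after maternal ethanol intake. They were the ligands Bdnf and Ntf3, the receptor tyrosine kinases Ntrk2 (TrkB) and Ntrk3 (TrkC), the p75 receptor Ngfr and the sorting receptor Sort1 (sortilin). The genes were chosen by name, for their place in the pathway, and are 6 of the 34322 genes in the count table. RNA was sequenced from 17 Long-Evans rats aged 36 to 38 days. In 5 of them (ET, 3 males and 2 females) the dam had drunk a liquid diet with 6.7% ethanol on gestational days 0 to 20. In 6 (PF, 3 males and 3 females) the dam was pair-fed, that is, given the same liquid diet without ethanol in the amount an ethanol dam took, and in 6 (AD, 3 males and 3 females) the dam ate standard chow freely. All dams went back to chow on day 20. Each group came from 1 litter, so diet, litter and dam cannot be told apart, and p-values measure the spread between littermates.

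Each neurotrophin is made as a longer precursor that is cut to its mature form inside or outside the cell. Mature BDNF and NT-3, the product of Ntf3, act mainly through TrkB and TrkC, while p75 binds every neurotrophin and, together with sortilin, binds the precursors and can signal for cell death. In the hippocampus BDNF is the ligand best known for its part in synaptic plasticity and memory, and its gene is switched on by neuronal activity through several promoters, each with its own first exon.

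The window upstream of a Bdnf first exon is shown because it is the one of 6 Bdnf windows in the RefSeq table (build GRCr8) that held TCACGTCA, a form of the cAMP response element that CREB can bind. It covers 250 bases of the plus strand, chr3:116637608-116637857, ending at the base before the exon, with the element in capitals. The element starts 38 bases before the exon.
Bdnf promoter window: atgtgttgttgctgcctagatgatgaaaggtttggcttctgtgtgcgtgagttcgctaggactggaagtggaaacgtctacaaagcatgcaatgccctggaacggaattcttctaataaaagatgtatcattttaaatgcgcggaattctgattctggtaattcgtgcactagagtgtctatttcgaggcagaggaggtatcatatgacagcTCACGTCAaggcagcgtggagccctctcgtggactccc
Searched on both strands, TCACGTCA stood in 117 of 33469 promoter windows of the table (0.35%). The palindromic form TGACGTCA was in 1.59% of the windows and the core TGACG, which overlaps both, in 18.2%. Neither TCACGTCA nor TGACGTCA was in the 3 Ntf3 windows or the 1 Sort1 window. The counts below merge all Bdnf first exons, so they do not tell which Bdnf promoter was used.

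The set analysed was the 14 samples of the study's final analysis (4 ET, 5 PF, 5 AD), with all 17 as an alternative. Between 10853947 and 17498392 fragments were counted per sample (median 13538433). Samples were left hippocampi, apart from 4 right ones (1 in ET, 2 in PF and 1 in AD). Hippocampal neuron markers were present in every sample, with 11 of 12 detected and only Tdo2 at 3 counts or fewer. The 3 samples left out (ET replicate 2, PF animal 11f6 and AD replicate 4) stood apart with summed choroid plexus markers of 127160, 137020 and 148950 normalized counts, against at most 23116 in the other 14. Sex-linked genes matched the sex label in 15 samples and not in 2 (AD replicates 1 and 2). All levels below are normalized counts per sample, scaled for library size. Levels were compared between samples of 1 gene and not between genes, since they are not corrected for transcript length.

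None of the 6 genes differed between diet groups at an adjusted p below 0.05 in edgeR's quasi-likelihood test. In ET against PF 0 of 6 passed, where 4.13% of all 16068 genes tested did. In ET against AD 0 of 6 passed, against 0.0127% of 15749 genes, and in PF against AD 0 of 6, against 5.17% of 15960. At an unadjusted p below 0.05 the counts were 0, 0 and 1 of 6, against 11.9%, 2.74% and 16.4% of all genes, and DESeq2 called 0 in each comparison. By the study's stricter rule, which asks for an adjusted p below 0.01 and a log2 fold change of more than 1.5 in size, 0 of 6 passed as well, against 2.17%, 0.0127% and 2.05% of all genes. All 6 genes had enough counts to be tested. For 0 of the 6 were the groups free of overlap, while this held for 6.82%, 1.2% and 6.66% of all genes in the 3 comparisons. With all 17 samples it was again 0 of 6, against 5.39%, 0.597% and 4.92%. ET and PF are each compared with AD, and PF stands in both ET against PF and PF against AD, so these comparisons share samples.

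**Figure D1:**
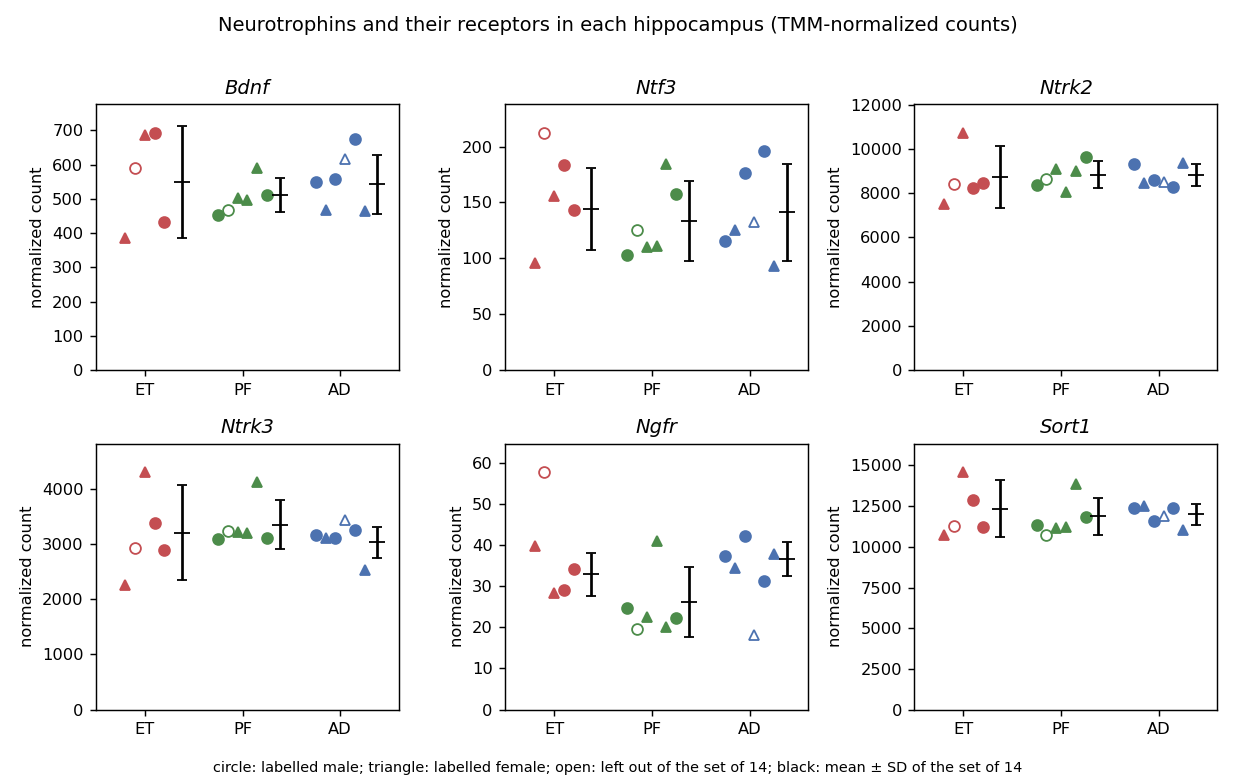
Normalized counts (vertical axes, from 0) of the 6 genes in each hippocampus by diet group, with circles for samples labelled male, triangles for female, open symbols for the 3 samples left out, and bars for the mean and SD of the set of 14. The groups overlapped for every gene, and the 4 filled ET points of Bdnf spread from 386 to 693.

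Among the ligands, Bdnf had 386, 686, 693 and 432 normalized counts in ET replicates 1, 3, 4 and 5. It had 502, 498, 592, 454 and 511 in PF (replicates 1, 2 and 3, animal 11f5 and replicate 6), and 550, 469, 559, 676 and 463 in AD (replicates 1, 2, 3, 5 and 6). The ET samples fell into a low and a high pair that reached below and above every PF sample. The means were 549 ± 163 in ET (SD, n = 4), 543 ± 86.3 in AD (n = 5) and 511 ± 50.1 in PF (n = 5), in that order, and neighbouring groups differed by less than their SDs. In ET against PF the log2 fold change of Bdnf was 0.10 (SE 0.17, adjusted p = 0.94), and the 95% interval of the fold ran from 0.82 to 1.40. Against AD it was 0.01 (SE 0.19, adjusted p = 1), with a fold between 0.76 and 1.35, and for PF against AD it was -0.08 (SE 0.10, adjusted p = 0.76). The coefficient of variation of Bdnf was 29.7% within ET, 9.80% within PF and 15.9% within AD, and this difference in spread was not tested.

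Ntf3, the gene of NT-3, had 95.7, 155, 184 and 143 normalized counts in ET. In PF it had 111, 111, 185, 103 and 158, and in AD 115, 125, 177, 196 and 92.9. Each group held low and high samples, with ET replicate 1 and AD replicate 6 lowest. Means were 145 ± 36.7 in ET, 141 ± 43.3 in AD and 133 ± 36.04 in PF, well within the SDs of each other. The log2 fold change of Ntf3 was 0.12 in ET against PF (SE 0.22, adjusted p = 0.94), 0.04 against AD (SE 0.23, adjusted p = 1) and -0.07 in PF against AD (SE 0.22, adjusted p = 0.92). The 95% interval for ET against PF allowed a fold from 0.78 to 1.52, the widest but for Ngfr of the 6 genes.

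Among the Trk receptors, Ntrk2 varied least of the 6. Its 4 ET samples held 7521, 10726, 8225 and 8451 normalized counts, its PF samples 9089, 8074, 8993, 8392 and 9630, and its AD samples 9328, 8484, 8615, 8272 and 9368. ET replicates 1 and 3 were the lowest and the highest of the 14. The means were 8836 ± 612 in PF, 8814 ± 503 in AD and 8731 ± 1388 in ET, and none of these differed beyond their spread. ET differed in Ntrk2 by a log2 fold change of -0.02 against PF (SE 0.10, adjusted p = 0.99), with a fold between 0.84 and 1.15, and -0.02 against AD (SE 0.10, adjusted p = 1). Between PF and AD it was 0.01 (SE 0.06, adjusted p = 0.97), where the interval of the fold, 0.92 to 1.10, was the narrowest of the 6 genes, followed by that of Sort1 (0.90 to 1.10). Fragments were counted per gene, so full-length TrkB and the truncated form that lacks the kinase were not told apart. Ntrk2 overlaps 7 and Ntrk3 1 uncharacterized loci in the GRCr8 gene list, and the strand setting of the counting is not given in the sources used here.

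Ntrk3, the receptor of NT-3, had 2249, 4299, 3382 and 2891 normalized counts in ET. In PF it had 3218, 3204, 4130, 3086 and 3103, and in AD 3154, 3110, 3105, 3245 and 2520. ET replicate 1 was lowest and ET replicate 3 highest, and PF replicate 3 and AD replicate 6 stood apart from otherwise close groups. Means were 3348 ± 441 in PF, 3205 ± 864 in ET and 3027 ± 289 in AD. Ntrk3 had a log2 fold change of -0.07 in ET against PF (SE 0.17, adjusted p = 0.96, fold between 0.74 and 1.24), 0.08 in ET against AD (SE 0.16, adjusted p = 1) and 0.15 in PF against AD (SE 0.09, adjusted p = 0.47). The last was 0.0615 without PF replicate 3.

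Ngfr, the p75 receptor, is low in the adult forebrain outside cholinergic neurons, and its deposited counts here were only 16.0 to 47.7 per sample. In ET it had 39.8, 28.3, 29.1 and 34.1 normalized counts. PF samples had 22.4, 41.0, 20.1, 24.7 and 22.2, and AD samples 37.4, 34.4, 42.2, 31.1 and 37.8. In PF, 4 of 5 samples lay below every ET and AD sample, and PF replicate 2 lay above all but AD replicate 3. The means were 36.6 ± 4.12 in AD, 32.8 ± 5.31 in ET and 26.1 ± 8.51 in PF.

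Ngfr showed the largest difference of the 6 genes. In PF against AD its log2 fold change was -0.49 (SE 0.19, unadjusted p = 0.024, adjusted p = 0.21), a fold of 0.71 with an interval from 0.53 to 0.95. Without PF replicate 2 it was -0.72 (SE 0.13), and the adjusted p of 0.0064 passed the threshold. With all 17 samples the log2 fold change of Ngfr was -0.44 (SE 0.22, adjusted p = 0.33), where the left-out AD replicate 4 had 18.0, the lowest value of the series. With left hippocampi only it was -0.30 (SE 0.24, adjusted p = 0.54). In ET against PF it was 0.33 (SE 0.22, adjusted p = 0.70), 0.55 without PF replicate 2 (adjusted p = 0.13), 0.19 with left hippocampi only (adjusted p = 0.86) and 0.59 with all 17 samples (adjusted p = 0.26), where the left-out ET replicate 2 had 57.7, the highest value of the series. In ET against AD the log2 fold change of Ngfr was -0.17 (SE 0.14, adjusted p = 1) and turned to 0.15 with all 17 samples. PF replicate 2 also had the highest summed choroid plexus markers among the PF samples of the set, 23116 normalized counts against 3317 to 6555. Among the ET samples of the set, ET replicate 1 had the highest choroid plexus sum (20868) and the highest Ngfr (39.8). Over the 14 samples Pearson's r of Ngfr with the choroid plexus markers was 0.42 (Spearman's rho 0.24, adjusted permutation p of r = 0.316). It was 0.76 with diet means removed and 0.57 in left hippocampi. The 3 left-out samples, with the most choroid plexus RNA, had Ngfr at both ends of the range (57.7, 19.5 and 18.0). ET replicate 2, at 57.7, also had the highest sum of 8 meningeal and vascular fibroblast markers, 6772 normalized counts against at most 4735 in the other samples. Those markers had a median log2 fold change of 0.28 in ET against PF and -0.18 in PF against AD, with 0 called in either. The part of tissue composition in the Ngfr values was not tested. In bulk tissue, fewer cells of a type and less RNA per cell cannot be told apart.

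Sort1, which carries BDNF into the regulated secretory route and binds precursor neurotrophins with p75, had 10708, 14587, 12859 and 11199 normalized counts in ET. In PF it had 11150, 11246, 13850, 11335 and 11849, and in AD 12394, 12526, 11606, 12404 and 11053. ET replicate 3 and PF replicate 3 were highest, as they were for Ntrk3. The means were 12338 ± 1759 in ET, 11997 ± 642 in AD and 11886 ± 1130 in PF. For Sort1 the ET samples had log2 fold changes of 0.05 against PF (SE 0.10, adjusted p = 0.95, fold between 0.88 and 1.22), 0.04 against AD (SE 0.09, adjusted p = 1) and -0.01 between PF and AD (SE 0.07, adjusted p = 0.97).

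**Figure D2:**
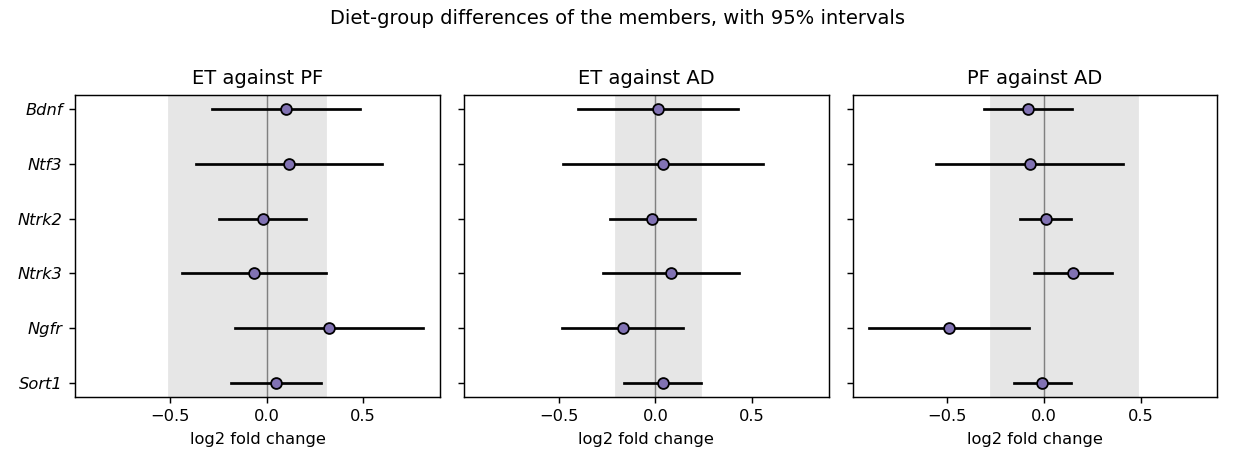
Log2 fold changes of the 6 genes (horizontal axes) in the 3 diet comparisons, with points for the estimate, lines for its 95% interval and a grey band from the 5th to the 95th percentile of all genes tested. Of the 18 intervals, only that of Ngfr in PF against AD, from -0.91 to -0.08, leaves out 0. The points of Ngfr lie outside the grey band in PF against AD (-0.28 to 0.48) and in ET against PF (-0.51 to 0.31).

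The spread between animals differed among the 6 genes. Over the 14 samples the coefficient of variation was 26.0% for Ntf3, 18.3% for Bdnf and 16.5% for Ntrk3, but 9.35% for Sort1 and 9.09% for Ntrk2. Among 11266 genes with a mean count of at least 100 the median was 8.88%, with the 5th and 95th percentiles at 4.33% and 23.6%. Ntrk2 and Sort1 thus lay near the middle of all such genes, and Ntf3 above the 95th percentile. Ngfr, whose mean count is below that minimum, had 23.5%.

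Males and females were compared in the 9 ET and PF samples of the set, with diet as a covariate, because every sex label there matched the sex-linked genes. For 0 of the 6 genes did the sexes differ (adjusted p = 1 for each in edgeR), where 0.0436% of 16068 genes passed, 0 of the 6 had an unadjusted p below 0.05 (1.87% of all genes), and DESeq2 called 0. The log2 fold changes of males against females lay between -0.19 for Ngfr (-0.0037 without PF replicate 2) and 0.14 for Ntf3. The fold was between 0.73 and 1.29 for Bdnf, 0.77 and 1.57 for Ntf3, and 0.82 and 1.15 for Ntrk2 by the 95% interval. Whether ethanol acted differently in males and females, tested as an interaction, passed for 0 of the 6, as for 0.0% of 16484 genes tested, with 0 of the 6 at an unadjusted p below 0.05 (1.4% of all genes) and 0 called by DESeq2. The largest interaction was that of Ntf3, at 0.42 on the log2 scale with an SE of 0.46, so the 4 ET and 5 PF samples left wide intervals.

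Ntf4, the gene of the second TrkB ligand, had at most 4.63 normalized counts in any of the 14 samples and was too low to be tested.

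Of the sortilin relatives, Sorl1 (SORLA, a sorting receptor for the amyloid precursor protein and TrkB) had the largest differences. It had 5159, 8588, 7006 and 5898 normalized counts in ET and 6537, 6574, 6239, 6770 and 6260 in AD. PF samples had 2946, 5973, 4307, 3170 and 6101. Every PF sample lay below every AD sample of the set, a separation found for 6.66% of all genes and not kept by Sorl1 with all 17 samples, while PF replicates 2 and 6 lay within the ET range. The log2 fold change of Sorl1 was -0.52 in PF against AD (SE 0.18, unadjusted p = 0.016, adjusted p = 0.16) and 0.56 in ET against PF (SE 0.24, unadjusted p = 0.038, adjusted p = 0.37), so neither passed. With each of 10 samples left out in turn, the adjusted p of Sorl1 in PF against AD ran from 0.050 to 0.30 and passed in 0. Sorcs1, Sorcs2 and Sorcs3, which code for related neuronal sorting receptors, did not pass. Their log2 fold changes ran from -0.21 to 0.08 for ET over PF and from -0.08 to 0.21 for PF over AD. In the interaction of sex and diet Sorcs1 had -0.72 (SE 0.23, unadjusted p = 0.014, adjusted p = 1).

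**Figure D3:**
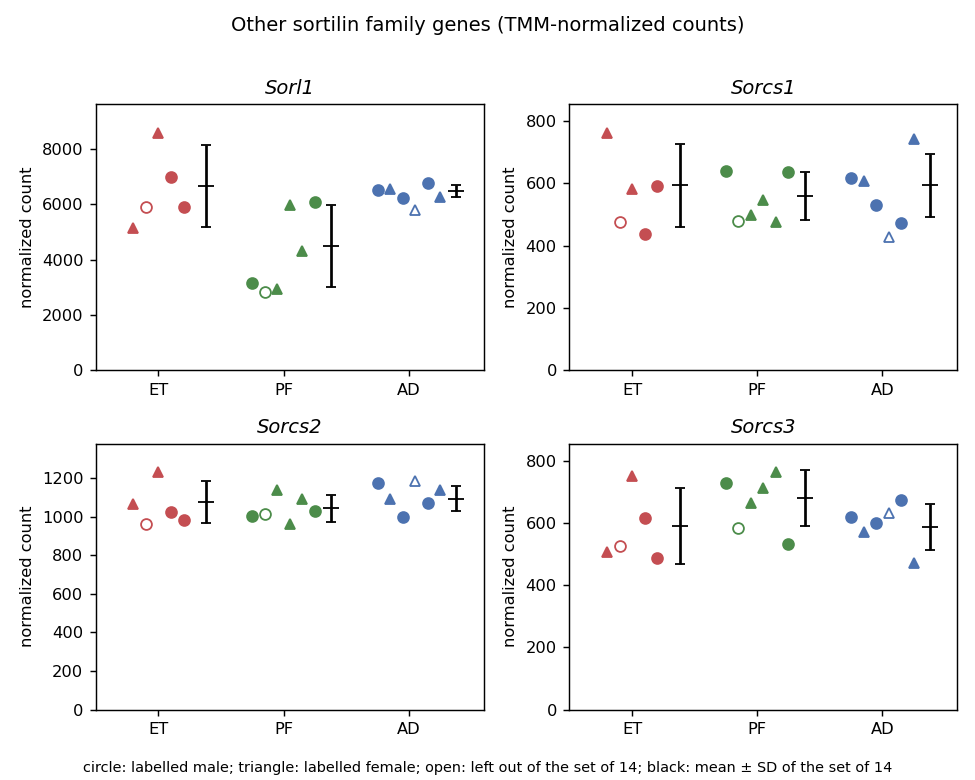
Normalized counts (vertical axes, from 0) of the sortilin relatives by diet group, with symbols as in the plot of the 6 genes and bars for the mean and SD of the set of 14. Sorl1 spread from 2946 to 6101 in PF and only from 6239 to 6770 in AD.

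Markers of other cell types and tissues were followed in ET against PF and PF against AD, which share the PF samples and are not independent. The summed 8 oligodendrocyte markers, all detected, ran from 285320 to 369550 normalized counts in ET, 207610 to 283800 in PF and 242320 to 342670 in AD. In ET against PF their median log2 fold change was 0.42, with 7 of 8 above 0. In PF against AD it was -0.29, with 7 of 8 below 0. Of the 8, 1 passed in ET against PF, where 4.13% of all genes did, and 1, Mag, in PF against AD, where 5.17% did. The summed 10 thalamus and habenula markers, none at 3 normalized counts or fewer in every sample of a group, ran from 1456 to 2651 in ET, 999 to 1486 in PF and 1511 to 1632 in AD. Of the 9 tested, 9 were above 0 in ET against PF (median 0.51) and 7 below 0 in PF against AD (median -0.24). In each, 1 was called, Tnnt1, at 1.60 and -1.80, where 4.13% and 5.17% of all genes were. The summed 10 choroid plexus markers ran from 4307 to 20868 in ET, 3317 to 23116 in PF and 2846 to 5575 in AD. Their median was 1.37 in PF against AD, with 9 of 10 above 0, 5 of 10 at an unadjusted p below 0.05 (16.4% of all genes) and 0 called, and 0.13 in ET against PF, with 7 of 10 above 0 and 0 called. The part of these cells and tissues in the differences of Ngfr, Sorl1, Pcsk6, Gab1, Mag and Spry2 was not tested.

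The genes around the ligands and receptors were described by lists made from knowledge of the pathway. Of 14 genes that cut neurotrophin precursors or control that cutting, 10 were tested. In ET against PF 1 of the 10 rose and 0 fell, where 4.13% of all genes passed, with a median log2 fold change of 0.01 (0.01 over all genes). The gene that rose was Pcsk6, the proprotein convertase PACE4, with 511, 574, 468 and 523 normalized counts in ET and 384, 418, 435, 402 and 433 in PF. Every ET sample was higher than every PF sample, as held for 6.82% of all genes. The log2 fold change of Pcsk6 was 0.32 (SE 0.07, adjusted p = 0.029). This call held in 3 of 9 fits that left out 1 sample (without ET replicate 4, PF replicate 3 or PF replicate 6) and was lost in the other 6, with an adjusted p of up to 0.091. With left hippocampi only the adjusted p was 0.15. Pcsk6 had 438, 474, 517, 461 and 519 normalized counts in AD, overlapping ET. PF lay below AD without overlap in the set of 14 (6.66% of all genes), but not with all 17 samples. Its log2 fold change in PF against AD was -0.21 (SE 0.06, adjusted p = 0.080). In ET against AD and in PF against AD 0 of the 10 passed, where 0.0127% and 5.17% of all genes did, with medians of 0.03 and 0.02.

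Among 45 Trk adaptors and signalling proteins, 1 rose and 0 fell in ET against PF, where 4.13% of all genes passed, with a median of -0.01. The 1 was Gab1, a docking protein downstream of receptor tyrosine kinases, which had 1024, 975, 938 and 1005 normalized counts in ET, 720, 815, 767, 793 and 880 in PF, and 880, 947, 1031, 935 and 1030 in AD. ET lay wholly above PF, as for 6.82% of all genes, and AD touched the PF range only at AD replicate 1. Gab1 had log2 fold changes of 0.31 in ET against PF (SE 0.06, adjusted p = 0.018) and -0.27 in PF against AD (SE 0.06, adjusted p = 0.023). The first was lost without ET replicate 5, PF replicate 3 or PF animal 11f5 (adjusted p up to 0.066), and the second without PF replicate 1, PF replicate 3, PF animal 11f5 or AD replicate 3 (up to 0.061) and with left hippocampi only (0.057). In PF against AD 0 of the 45 rose and 1 fell (Gab1), where 5.17% of all genes passed, and in ET against AD 0 passed, with medians of 0.00 in both.

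Of 16 co-receptors and adaptors of p75, 0 passed in ET against PF, where 4.13% of all genes did. The median was 0.08 (0.01 over all genes), with 14 of 16 above 0. In ET against AD 0 passed, where 0.0127% of all genes did, with a median of 0.01 and 9 of 16 above 0. In PF against AD 1 fell and 0 rose, where 5.17% of all genes passed, with a median of -0.07 and 14 of 16 below 0. PF against AD and ET against PF share the PF samples, so their counts of 14 are not independent. Mag, a myelin protein that binds the Nogo receptor complex with p75, had 7940, 5634, 5318 and 7385 normalized counts in ET, 4310, 5117, 4669, 4984 and 5459 in PF, and 5807, 7116, 6029, 5641 and 7809 in AD. In the set of 14, PF was below AD without overlap (6.66% of all genes), but with all 17 samples the groups overlapped. Mag had log2 fold changes of -0.40 in PF against AD (SE 0.10, adjusted p = 0.037) and 0.42 in ET against PF (SE 0.13, adjusted p = 0.13). The first held in 4 of 10 fits that left out 1 sample (without PF replicate 6 or AD replicate 1, 3 or 5) and was lost in the other 6 (adjusted p up to 0.10), with left hippocampi only (0.10) and in 1 fit of the 3 groups (0.092). The second passed without ET replicate 4 (0.047) and in DESeq2 (0.041). Mag is also an oligodendrocyte marker. Of the 8 markers of that list, 5 had an unadjusted p below 0.05 in PF against AD and 7 in ET against PF, where 16.4% and 11.9% of all genes did.

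Among 15 transcriptional regulators of Bdnf 0 passed in any diet comparison. In ET against PF, ET against AD and PF against AD their medians were 0.00, 0.02 and 0.01, and 4.13%, 0.0127% and 5.17% of all genes passed. The 2 with the smallest p in ET against PF were Usf2, an E-box factor (log2 fold change 0.07, SE 0.07, adjusted p = 0.83), and Npas4, an activity-induced factor (0.54, SE 0.52, adjusted p = 0.84). Of 20 genes that neuronal activity or BDNF induces, such as Arc, Fos and Egr1, 0 passed in ET against PF (median 0.04) and 0 in ET against AD (median -0.14). In PF against AD 1 fell and 0 rose, near the 5.17% of all genes that passed, with a median of -0.13. The 1 was Spry2, an inhibitor of receptor tyrosine kinase signalling, with 857, 994, 962, 955 and 894 normalized counts in PF and 1192, 1119, 1027, 1076 and 1077 in AD. PF and AD were without overlap in the set of 14, as for 6.66% of all genes, but overlapped among all 17. For Spry2 the log2 fold change came to -0.23 with an SE of 0.05 (adjusted p = 0.027). The call was lost without PF replicate 1, PF animal 11f5, AD replicate 1 or AD replicate 2 (adjusted p up to 0.078) and with left hippocampi only (0.071).

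**Figure D4:**
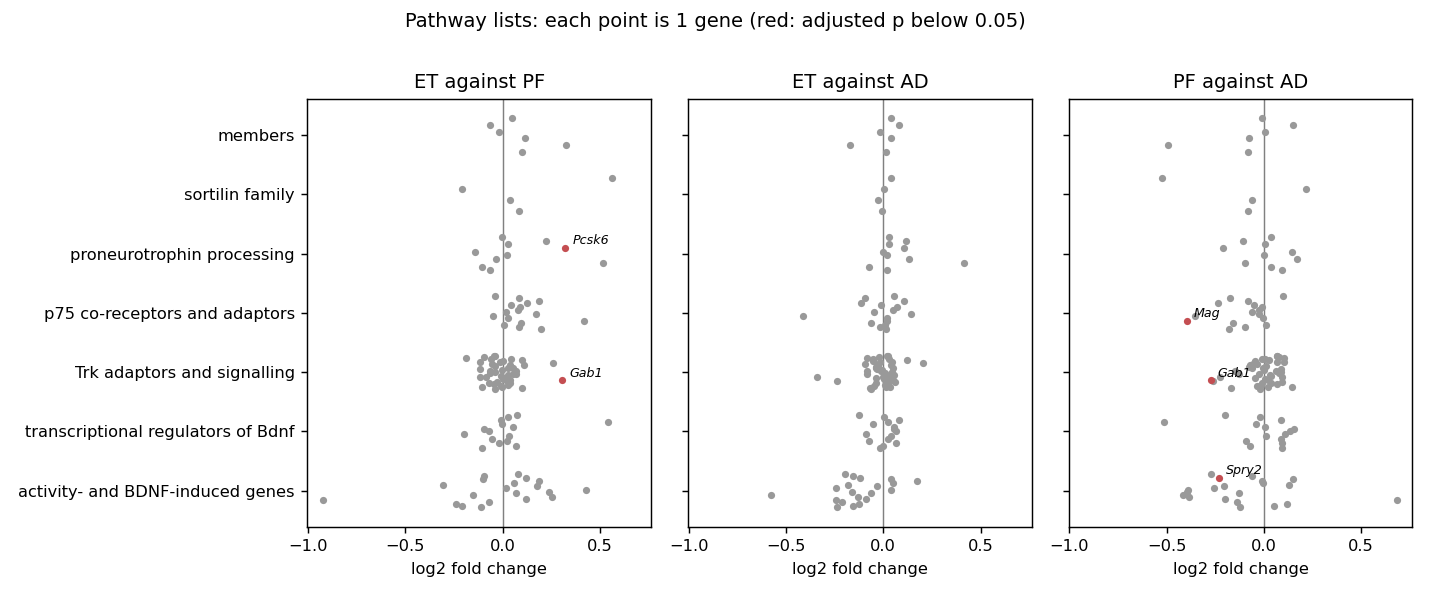
Log2 fold changes (horizontal axes) of the 6 genes, the sortilin relatives and the 5 pathway lists (rows) in the 3 diet comparisons, 1 point per gene, red where the adjusted p was below 0.05. Most points lie near 0, and the called genes are Pcsk6 (0.32) and Gab1 (0.31) in ET against PF, and Mag (-0.40), Gab1 (-0.27) and Spry2 (-0.23) in PF against AD.

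Within and across diet groups, 4 of the 6 genes varied together between animals. Over the 14 samples, on a log2(CPM + 1) scale, 6 of the 15 pairs had an adjusted permutation p of Pearson's r below 0.05, and these were the 6 pairs among Bdnf, Ntf3, Ntrk3 and Sort1. The closest was Ntrk3 with Sort1, with r = 0.87 and Spearman's rho = 0.78 (adjusted permutation p = 0.0003 and 0.00589). Bdnf correlated with Sort1 at r = 0.78 and rho = 0.80, with Ntrk3 at r = 0.77 and rho = 0.86, and with Ntf3 at r = 0.76 and rho = 0.78. Ntf3 correlated with Sort1 at r = 0.63 and rho = 0.75, and with Ntrk3 at r = 0.62 and rho = 0.63.

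The same relations were computed without the diet differences and without the farthest samples. After removal of the diet means, r was 0.93 for Ntrk3 and Sort1, 0.84 for Bdnf and Ntrk3 and between 0.63 and 0.79 for the other 4 pairs. Without the 2 samples farthest from the median of the first gene of a pair it was between 0.59 and 0.78, and in the 11 left hippocampi between 0.70 and 0.91. In 14 repeats that each left out 1 sample, the 3 pairs of Bdnf and the pair of Ntrk3 and Sort1 passed in all 14. The pair of Ntf3 and Ntrk3 was lost without ET replicate 1, ET replicate 4, PF replicate 3 or AD replicate 6 (adjusted permutation p up to 0.149). The pair of Ntf3 and Sort1 was lost in 7 of the 14, without any of those 4 samples or without PF replicate 1, PF replicate 2 or PF animal 11f5 (up to 0.115). With all 17 samples 4 of the 15 pairs passed.

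Ntrk2 stood outside this group. Its r with Ntrk3 was 0.55 and with Sort1 0.54, but these fell to -0.16 and -0.02 without ET replicates 1 and 3, so they rested on those samples. Both passed only without AD replicate 6 (adjusted permutation p = 0.0319 and 0.0481). Ngfr correlated negatively with each of the other 5, from -0.27 with Bdnf to -0.54 with Ntrk3, and none of the 5 passed.

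Summed markers of hippocampal neurons, 12 genes of granule and pyramidal cells, moved with the same 4 genes. These relations with 10 marker lists (60 in all, of which 7 passed) were computed after the values had been seen. The sum was lowest in ET replicate 1 (13666 normalized counts) and AD replicate 6 (16328) and highest in PF replicate 3 (25613), ET replicate 3 (25296) and ET replicate 4 (25234). It correlated with Ntrk3 at r = 0.88 (rho = 0.82, adjusted permutation p = 0.0012), with Bdnf at 0.87 (rho = 0.91, 0.0012), with Ntf3 at 0.83 (rho = 0.87, 0.0016) and with Sort1 at 0.83 (rho = 0.90, 0.0051). Without the 2 farthest samples the 4 values of r were between 0.79 and 0.86, with diet means removed between 0.85 and 0.92 and in left hippocampi between 0.86 and 0.90. With the 7 general neuron markers the same 4 genes had r of at most 0.37, and none passed.

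Ntrk2 instead followed the 8 astrocyte markers, at r = 0.79 and rho = 0.79 (adjusted permutation p = 0.0078 and 0.013), and r was 0.67 without the 2 farthest samples and 0.79 in left hippocampi. The remaining 2 relations were those of Sort1 with pericyte and endothelial markers (r = -0.76, rho = -0.68) and with cholinergic neuron markers (r = 0.70, rho = 0.50). Without the 2 farthest samples they were -0.47 and 0.45, and by rho neither passed. The part of tissue composition in the shared variation was not tested.

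**Figure D5:**
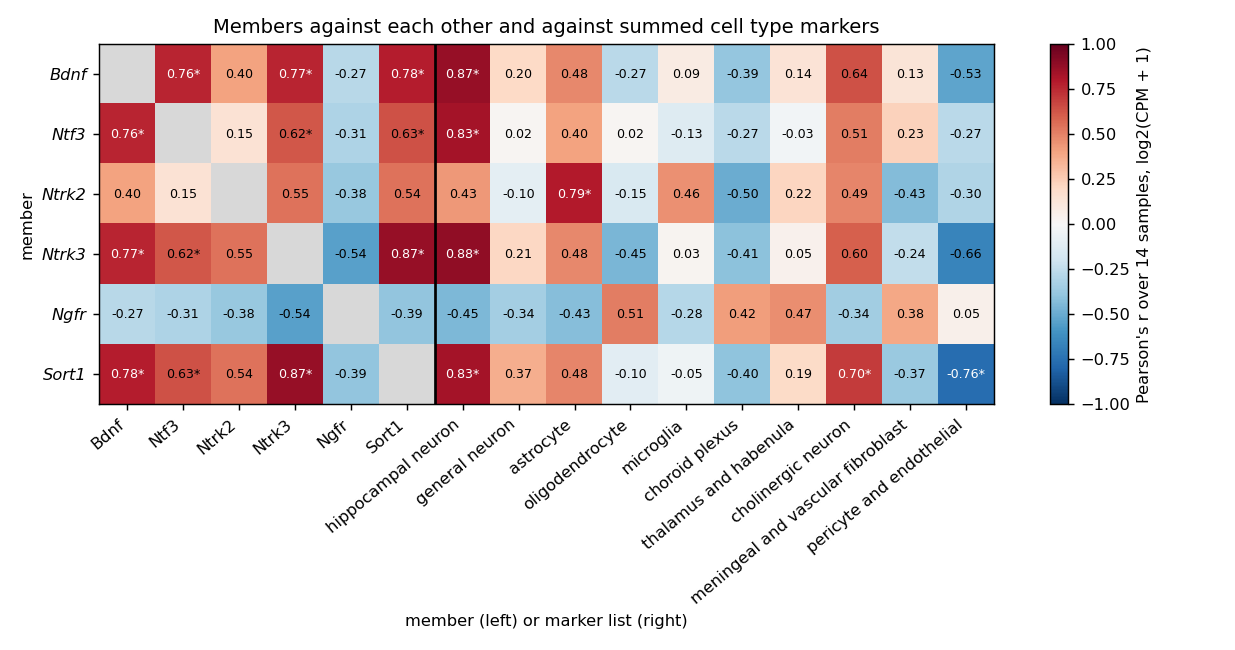
Pearson's r over the 14 samples on the log2(CPM + 1) scale, as colour and number, of each of the 6 genes (rows) with each other (left of the line) and with summed markers of 10 cell types (right), with * where the adjusted permutation p was below 0.05. Bdnf, Ntf3, Ntrk3 and Sort1 form a block of positive values from 0.62 to 0.87 that extends to the hippocampal neuron markers (0.83 to 0.88).

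The genes whose levels were most like each of the 6 were found by Pearson's r over the 14 samples among genes with a mean count of at least 100. For Bdnf they were Mas1 (r = 0.93), Nrip3 (0.92) and Bok (0.91), and Mas1 codes for the receptor of an angiotensin fragment. Bok is one of the hippocampal neuron markers. For Ntf3 they were Tle1 (0.95), RGD1566359 (0.93) and the ephrin receptor Epha7 (0.93). For Ntrk3 they were the dystrophin gene Dmd, Armcx4 and the NMDA receptor subunit Grin2b (0.98 each). For Sort1 they were Gpr158 (0.97), LOC102548231 (0.96) and the sodium channel Scn8a (0.94). For Ntrk2 they were Nacc2 (0.89) and the unconventional myosins Myo10 (0.88) and Myo6 (0.87). For Ngfr they were Gas1 (0.89), Znf408 (0.84) and Tmem98 (0.83), of which Tmem98 fell to 0.37 with all 17 samples. These are descriptions, picked as the highest of 11265 values (11266 for Ngfr).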

How the data were processed

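RNA of 17 hippocampi was sequenced as stranded, paired-end mRNA libraries. The authors trimmed reads with fastp, mapped them to mRatBN7.2 with Bowtie2 2.4.2 and counted fragments on exons with featureCounts 2.0.1 at a minimum mapping quality of 10. Strand setting and annotation release are not given in the sources used here. The values deposited by the authors are expected counts in form, averages of 3 technical replicates without normalization (100.0% were multiples of 1/3 within 0.001), and were rounded to whole numbers here.

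Samples were grouped by diet from the labels. Genes passing filterByExpr were compared with edgeR 4.0.16 (TMM, glmQLFit, glmQLFTest) in R 4.3.3, with Benjamini-Hochberg adjustment over all genes and a threshold of 0.05. The adjusted p-values in the text are from this test unless a permutation is named. Levels are counts scaled by TMM over 17 samples to the mean library size. Correlations used 100000 permutations (two-sided). The 2 PF animals 11f5 and 11f6 were tied to their group but not to a replicate number. The 6 genes and all lists were chosen with earlier results of these data known. Named genes were the 6, their family, list genes with an adjusted p below 0.05 in a diet comparison (or, with none, the 2 of smallest p in ET against PF) and the 3 most alike per gene. Some genes of these lists are not reported here.

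Alternatives were DESeq2 1.42.0, median-of-ratios scaling, no filter on low counts, sex as covariate, 1 fit of 3 diet groups, left hippocampi, a replicate block, 17 samples, CPM by library total and leaving out each sample. Leaving out samples in the correlations was added after seeing the data. The fits were tested on simulated data with the same dispersion for every gene. Of 68 genes changed by 0.5 on the log2 scale, edgeR called 22 in ET against PF, 31 in ET against AD and 40 in PF against AD. Of 66 changed by 1, it called 66 in each. Small changes could thus be missed, and these shares are not specific to the 6 genes. Fragments carry no molecular identifiers. Statistics and plots used Python 3.11.15, scipy 1.17.1 and matplotlib 3.10.9.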

Additional observations from a re-analysis of the deposited data

Results flagged for a closer look

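In 33 groups of 4 or 5 samples (11 genes in 3 diets), 4 had a sample whose gap to its nearest neighbour was large against the range of the group by Dixon's test at the 95% level, where chance gives about 1 in 20, or 1.65. PF replicate 3 had 4130 normalized counts of Ntrk3, with the other PF samples at 3086 to 3218. The same rat had 13850 of Sort1, with the others at 11150 to 11849. AD replicate 6 had 2520 of Ntrk3, with the others at 3105 to 3245. PF replicate 2 had 41.0 of Ngfr, with the others at 20.1 to 24.7, and the adjusted p of Ngfr in PF against AD (edgeR) was 0.21 with it and 0.0064 without it. No cause of these values was tested.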

How the results depend on the processing

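The 6 genes stayed short of the threshold under every alternative but 1, Ngfr in PF against AD without PF replicate 2. Apart from the samples left out in turn, 15 values turned sign, 4 counts moved by over 1.5 times and, among the other named genes, 8 calls were lost and 2 gained. The replicate number did not pair the samples (different animals, and deviations of same-numbered samples correlated at -0.01 and 0.64 for ET and PF, on average -0.055 between ET and AD and 0.002 between PF and AD). With it as a block, which in comparisons with PF also leaves out PF animal 11f5 (no number), log2 fold changes turned for Bdnf (-0.079) and Ntf3 (-0.23) in ET against PF, for Bdnf (-0.28), Ntf3 (-0.30), Ntrk2 (0.015), Ntrk3 (-0.059) and Sort1 (-0.0069) in ET against AD, and for Bdnf (0.047), Ntf3 (0.14) and Sort1 (0.016) in PF against AD, and genes called in ET against PF moved from 664 to 359 (549 without 11f5 alone). In these fits Gab1 (adjusted p = 0.26) and Pcsk6 (0.29) in ET against PF and Spry2 (0.13) in PF against AD fell short of the threshold, as they did without 11f5 alone (0.054, 0.087 and 0.051). In ET against PF, where only 2 numbers are shared, Ngfr was at 0.67 (0.50) and Sorl1, at 0.56 with all 9 samples and 0.46 without 11f5 alone, at 0.90, with an adjusted p of 0.018 that passed. The other losses were with left hippocampi only (Pcsk6, Gab1, Mag and Spry2) and in 1 fit of 3 groups (Mag), and the other gain was Mag in DESeq2. In left hippocampi Ntrk2 turned in ET against PF (0.035), and Ntf3 (0.017), Ntrk2 (-0.056) and Sort1 (0.013) in PF against AD. With 17 samples Ngfr turned in ET against AD (0.15). The cause was not tested. Genes called in ET against AD were 2, but 6 with 17 samples, 11 in DESeq2 and 5 in 1 fit of 3 groups.

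Leaving out 1 sample gave ranges across 0 in ET against PF for Bdnf (-0.027 to 0.23), Ntf3 (-0.016 to 0.27), Ntrk2 (-0.14 to 0.044), Ntrk3 (-0.24 to 0.069) and Sort1 (-0.042 to 0.12). In ET against AD they were -0.11 to 0.15, -0.094 to 0.19, -0.13 to 0.048, -0.094 to 0.22 and -0.053 to 0.099 for the same genes, with 2 to 4 genes called. In PF against AD they were -0.14 to 0.0057 for Bdnf, -0.22 to 0.066 for Ntf3, -0.023 to 0.040 for Ntrk2, 0.0615 to 0.18 for Ntrk3, -0.72 to -0.41 for Ngfr and -0.072 to 0.015 for Sort1, with 0 to 1 of the 6 called. For males against females they were -0.20 to 0.088 for Bdnf, -0.0055 to 0.30 for Ntf3, -0.11 to 0.074 for Ntrk2, -0.29 to 0.037 for Ntrk3, -0.30 to -0.0037 for Ngfr and -0.14 to 0.011 for Sort1. Ngfr had 16.0 to 47.7 counts per sample, and the part of counting error in its spread was not tested.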
